A study of Mus musculus with 12 samples.

Results

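The enzymes described here are the phase II conjugation enzymes that the array carries: glutathione S-transferases (GSTs), microsomal glutathione S-transferases (MGSTs), UDP-glucuronosyltransferases (UGTs) and sulfotransferases (SULTs). They were chosen by symbol alone, as every gene with a probe set of its own whose symbol begins with Gsta, Gstk, Gstm, Gsto, Gstp, Gstt, Mgst, Ugt or Sult followed by a digit. This gave 40 of the 12393 genes on the array, of which 17 were cytosolic GSTs, 3 were MGSTs, 9 were UGTs and 11 were SULTs. By the same symbols, 58 of 22626 probe sets belong to these families. Of the 58, 53 are listed with 1 gene and read the 40 genes, 11 of which have more than 1 probe set. The other 5 are listed with several related genes, and of those genes Gsta1, the Ugt1a genes, Ugt2a1 and Ugt2a2 have no probe set of their own and are not among the 40.

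The tissue was profiled on Affymetrix mouse arrays in 4 groups of 3 arrays each. Lungs and livers came from 3 female nude NCR mice that had an orthotopic 4T1 tumor (4T1 is a mammary carcinoma line of mouse origin) and from 3 female nude NCR mice given PBS in place of cells. All tissue was taken on day 7 after injection. Nude mice lack a thymus and so most T cells, and this holds for the control animals too. The submitters call the tissue of tumor-bearing mice pre-metastatic, so the comparison bears on what a distant tumor does to organs before metastases are established there. All values below are deposited log2 expression values made with GCRMA.

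Phase II enzymes attach a polar group to a reactive or fat-soluble compound so that it can be excreted. GSTs attach glutathione to electrophiles, UGTs attach glucuronic acid to hydroxyl and carboxyl groups, and SULTs transfer sulfate from the donor PAPS. MGSTs are membrane proteins unrelated in fold to the cytosolic GSTs. Liver is the main site of all these reactions, and in lung the club cells of the airway are known for a high content of xenobiotic enzymes.

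Lung and liver differed clearly on the arrays, and arrays within a group correlated at 0.989 to 0.996. The mean of 15 hepatocyte markers was 15.45 to 15.55 in every liver. In lung it was 9.29, 4.14 and 4.11 in tumor lungs 1, 2 and 3, and 5.40, 3.69 and 10.63 in control lungs 1, 2 and 3. Tumor lung 1 and control lung 3 thus stood apart from the other 4 lungs in these markers, and control lung 1 came next. The tumor differences of lung members that separated the groups, and the family medians, are also given without these 2 arrays. Values for the organ comparison, the cell markers, cofactor genes, regulators and probe sets listed with several genes are given with all lungs. In lungs, the alveolar type II cell markers averaged 14.53, 14.23 and 14.11 with a tumor and 14.27, 14.45 and 14.25 without. Cardiac muscle markers varied widely, from 6.12 in tumor lung 1 to 9.15 in tumor lung 2. In control lungs they ran from 4.45 in control lung 1 to 9.95 in control lung 3. The lungs left without tumor lung 1 and control lung 3 were thus not alike in cardiac muscle markers. The part of these markers in the lung differences was not tested. A probe set counts as measurable here when its value exceeded 4 on at least 3 of the arrays compared. A gene is said to have risen or fallen where limma's p, adjusted over all genes tested by the Benjamini-Hochberg method, was under 0.05. Each gene is represented by its brightest probe set.

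In control animals, conjugation enzymes were mostly much lower in lung than in liver. Of 35 members tested, 30 were lower in control lungs than in control livers and 3 were higher. By comparison, 35.5% of all genes tested were called lower in lung, 45.6% were called higher and 81.1% were called in either direction. The median lung minus liver difference over members was -4.38, against 0.18 over all genes tested. For 10 of the 35 members, all of them called, 1 organ (lung for 9 of them) had no control array above 4. These members passed the filter only through the other organ, so their direction was fixed by the filter. The all-gene shares come from the same filter. The true size of these differences is known only as a bound set by the organ without such an array. With that organ counted at 4, the median was -3.61 over members, -9.34 or further for the 7 UGTs (4 at the bound) and -6.23 or further for the 8 SULTs (4 at the bound). It was -2.17 for the 17 cytosolic GSTs and 1.00 for the 3 MGSTs. The members that never exceeded 4 on any of the 12 arrays were 5 in number: Sult1c1, Sult2b1, Sult4a1 (known as a brain form), Ugt2b38 and Ugt8a, which makes the galactolipids of myelin.

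**Figure D1:**
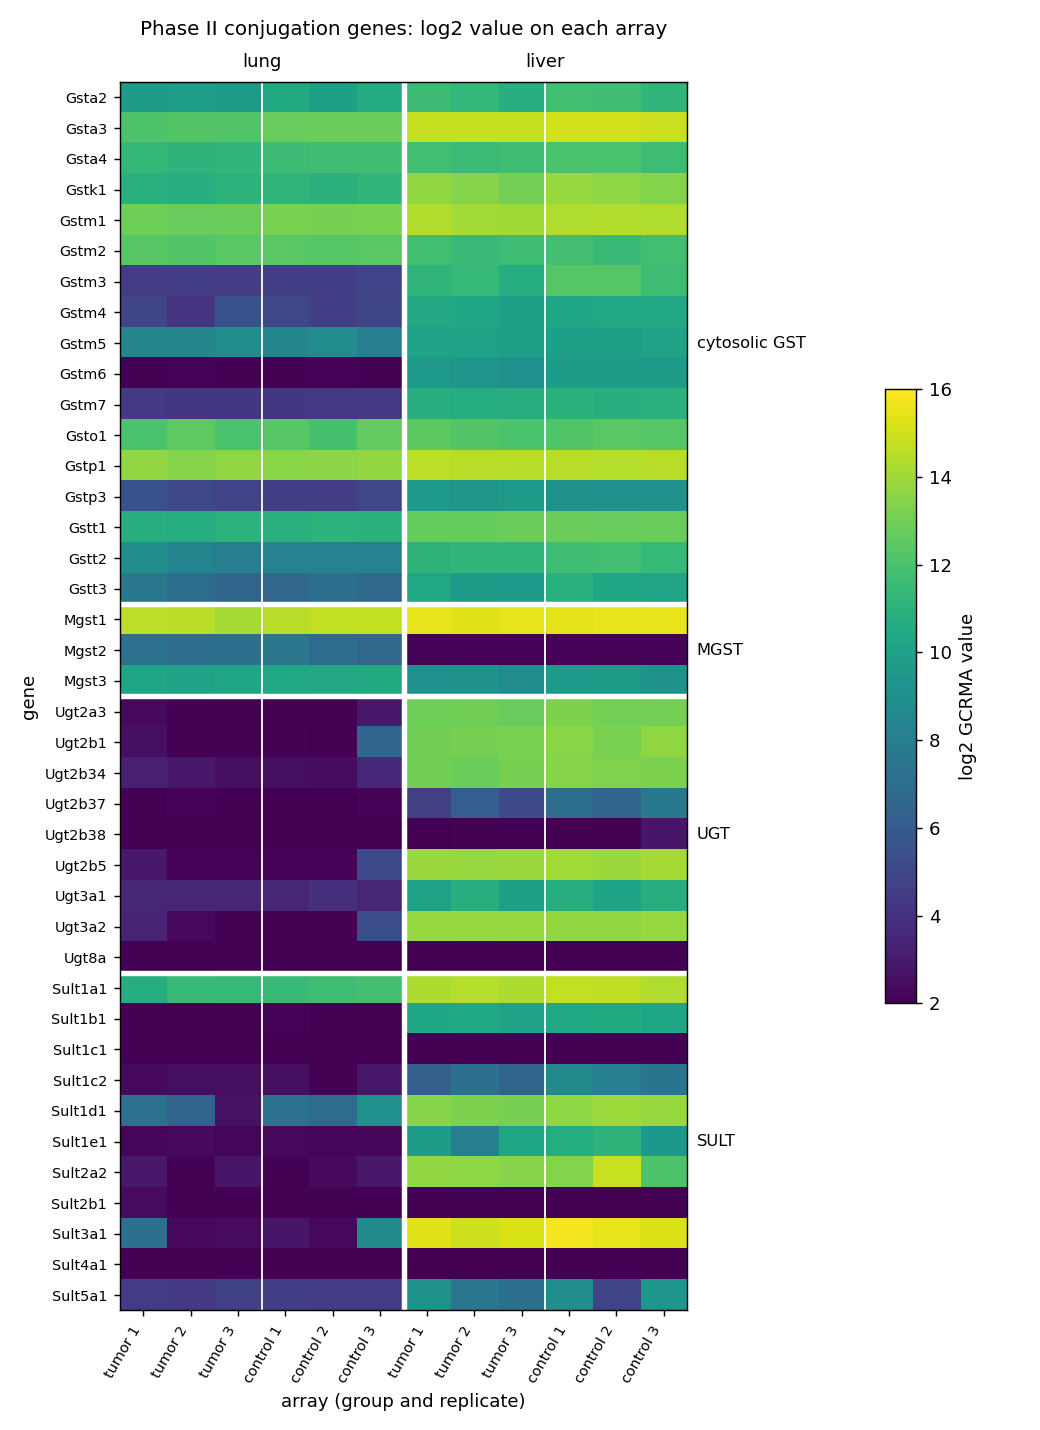
The grid shows the log2 GCRMA value of all 40 genes (down) on all 12 arrays (across), with lung left of liver and tumor arrays left of control arrays. Dark cells are low and yellow cells high. Most UGT and SULT genes are dark in lung and bright in liver, while the GST and MGST genes include several that are bright in both.

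Of the 17 cytosolic GSTs, 16 were measurable in lung. Gstp1, the pi-class enzyme, averaged 13.61 in control lungs and 14.46 in control livers. Gstm1, a major mu-class enzyme of mouse liver, averaged 13.17 in control lungs and 14.34 in control livers. Gsta3, an alpha-class enzyme known in the mouse for conjugating the epoxide of aflatoxin, averaged 12.81 in control lungs and 14.98 in control livers (difference -2.17, limma adjusted p = 2.38e-06). Gsto1, the omega-class enzyme, averaged 12.29 ± 0.35 in control lungs and 12.31 ± 0.11 in control livers (SD, n = 3 each), and Gsta4, which conjugates the lipid peroxidation product 4-hydroxynonenal, averaged 11.67 and 11.91. Neither Gsto1 (limma adjusted p = 0.933) nor Gsta4 (0.122) differed between the organs past the threshold.

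Within the mu class the size of the organ difference varied from gene to gene. The 7 Gstm genes lie side by side in the RefSeq annotation of GRCm38.p6, in the order Gstm5, Gstm7, Gstm6, Gstm3, Gstm2, Gstm1 and Gstm4, with 0 other coding genes between them. Gstm3, Gstm4, Gstm6 and Gstm7 averaged 4.68, 4.86, 2.12 and 4.34 in control lungs, and 12.08, 10.34, 9.73 and 10.90 in control livers. Their lung minus liver differences were -7.41, -5.48, -7.60 and -6.56, while those of Gstm1 and Gstm5 were -1.17 and -1.54. Gstm6 was at least 53-fold lower in control lungs, counting the lung at the filter value of 4. Gstm3 read the same 4.61 on control lungs 1 and 2, just above the filter value, so the size of its difference is uncertain too. Gstm2 was called higher in control lungs, at 12.37 ± 0.06 against 11.70 ± 0.18 in control livers (SD, n = 3 each; 1.58-fold, limma adjusted p = 0.00172). Its call depended on the scaling: centring each array on its median, which moves the all-gene difference between the organs by -0.47, left a difference of 0.19 (limma adjusted p = 0.154). Probe sets of such close paralogs may also bind each other's transcripts, so levels of single Gsta, Gstm and Ugt2b genes are uncertain to that degree.

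Of the MGSTs, 2 were higher in control lungs and 1 was lower. Mgst2, a membrane enzyme that can make leukotriene C4, averaged 7.08 ± 0.44 in control lungs and 2.12 ± 0.01 in control livers (SD, n = 3 each), at least 8.45-fold higher in lung. Mgst3, a relative with glutathione transferase and peroxidase activity, was 2-fold higher in lung, at 10.44 ± 0.07 in control lungs and 9.44 ± 0.27 in control livers (limma adjusted p = 0.000991). Mgst1, the abundant enzyme of the endoplasmic reticulum and outer mitochondrial membrane, was 1.76-fold lower in lung, at 14.65 in control lungs and 15.46 in control livers.

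The SULTs and UGTs marked liver. Sult2a2, a hydroxysteroid sulfotransferase, averaged 2.46 ± 0.46 in control lungs and 13.45 ± 1.38 in control livers (SD, n = 3 each), at least 700-fold lower in lung. Sult1b1, which sulfates thyroid hormones and phenols, averaged 2.08 and 10.42, at least 85.4-fold lower in lung. Sult1a1, the phenol sulfotransferase, was measurable in every lung, at 11.64 in control lungs and 14.57 in control livers. None of the 9 UGTs listed with 1 gene was measurable by the filter in lung. The Ugt1a genes share their last exons, and 3 probe sets are each listed with 8 Ugt1a genes, among them the bilirubin enzyme Ugt1a1. The brightest of these sets was 11.08, 11.48 and 11.78 in control lungs and 14.78, 14.81 and 14.76 in control livers.

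The liver members were faint on the lung arrays, with exceptions on the 2 arrays with the highest hepatocyte markers. Of 18 members at or under 4 on the other 4 lung arrays, 14 were at or under 4 on all 6. The other 4, Sult3a1, Ugt2b1, Ugt2b5 and Ugt3a2, exceeded 4 on control lung 3, at 8.72, 6.56, 5.16 and 5.34. Sult3a1, an amine sulfotransferase, did so on tumor lung 1 too: it was 7.10, 2.37 and 2.43 in tumor lungs 1, 2 and 3, and 2.84, 2.29 and 8.72 in control lungs 1, 2 and 3. The 2 arrays come from different groups and were set apart by their hepatocyte markers. Because the 18 members were picked as low on the other 4 lungs, values above 4 could lie only on these 2 arrays.

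**Figure D2:**
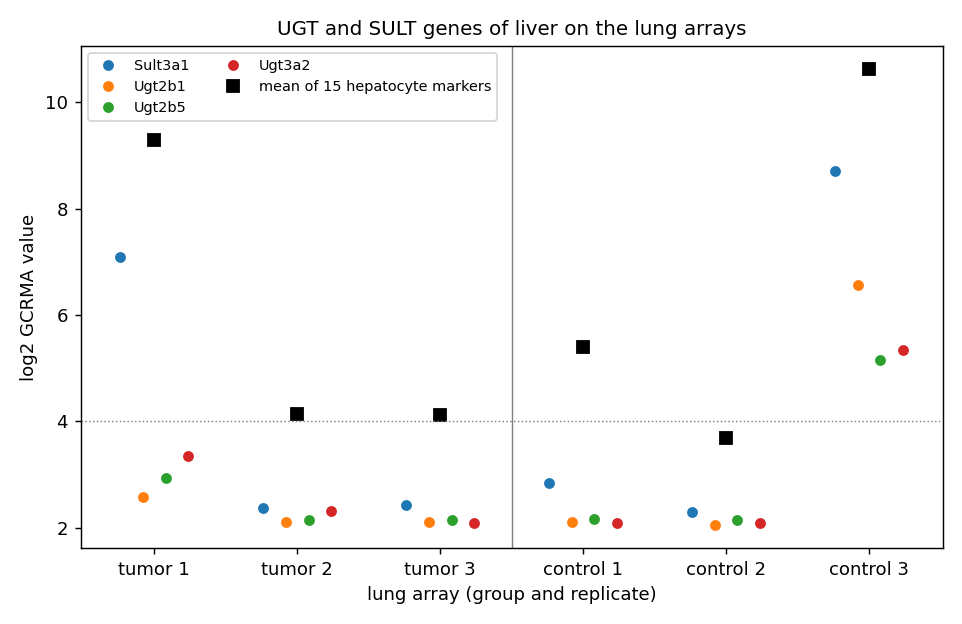
Each point is the log2 GCRMA value of a gene on a lung array, with tumor lungs left of the grey line and control lungs right of it. Black squares are the mean of 15 hepatocyte markers and the dotted line is the filter value of 4. Tumor lung 1 and control lung 3 carry the highest squares (9.29 and 10.63). All 4 genes exceed 4 on control lung 3, and Sult3a1 does on tumor lung 1. They were picked as members at or under 4 on the other 4 lungs and above 4 on either of these arrays.

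In lungs of tumor-bearing mice, 1 of 22 members tested fell and none rose, against 0.734% of all genes called in either direction (0.114% lower, 0.62% higher). The gene that fell was Gsta3. It measured 12.11, 12.24 and 12.19 in tumor lungs 1, 2 and 3, and 12.77, 12.88 and 12.79 in control lungs 1, 2 and 3. Every tumor lung was below every control lung, by more than the spread within either group. Gsta3 fell by 0.63 ± 0.08 (SE) on the log2 scale, 1.55-fold (limma adjusted p = 0.0448). The p lay close to the threshold and the call was lost in 11 of 16 alternatives, including each one that left out a single lung (limma adjusted p = 0.106 to 0.168), while the difference itself stayed between -0.66 and -0.59. Without tumor lung 1 and control lung 3 the adjusted p was 0.376.

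A second probe set of Gsta3 was dimmer and pointed the same way in lung. It read 8.47, 8.78 and 8.96 in tumor lungs and 9.21, 9.13 and 9.52 in control lungs. Here too the groups did not overlap, with a difference of -0.55 ± 0.17 (SE) that did not pass the test over all probe sets (limma adjusted p = 0.279). Without tumor lung 1 and control lung 3 it was -0.30. Over probe sets, where 0.406% were called in lung, no member was called, and the brighter Gsta3 set had an adjusted p of 0.0558.

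The promoter of Gsta3 is shown because it is the member that fell in lung. The mouse alpha-class genes are textbook targets of NRF2, which binds antioxidant response elements. The core TGACNNNGC, searched on both strands of the 250 bases before each RefSeq start, occurred in 4 of the 35 members with a window and in 10.2% of all 32851 windows. In Gsta3 (GRCm38.p6, chr1:21240335-21240584, plus strand, read 5′ to 3′ toward the start) the match, in capitals, lies 121 to 113 bases before the start.
Gsta3: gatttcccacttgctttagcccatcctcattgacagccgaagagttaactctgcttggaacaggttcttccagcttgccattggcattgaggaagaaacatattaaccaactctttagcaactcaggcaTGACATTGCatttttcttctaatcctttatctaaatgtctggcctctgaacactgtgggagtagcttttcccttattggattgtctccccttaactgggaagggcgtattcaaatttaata
The other matches were in Gstm5 (chr3:107895800-107895832, plus strand, 42 to 34 bases before the start), Gstm7 (chr3:107931723-107931755, minus strand, 129 to 121 bases before) and Mgst1 (chr6:138140459-138140491, plus strand, 56 to 48 bases before, core on the opposite strand). They are given beside Gsta3 with 12 bases on each side and the core in capitals, since the cores differ in their 3 free bases.
Gsta3: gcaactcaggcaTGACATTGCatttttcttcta
Gstm5: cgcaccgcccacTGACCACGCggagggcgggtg
Gstm7: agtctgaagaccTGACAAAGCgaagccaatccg
Mgst1: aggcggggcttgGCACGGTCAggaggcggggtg
The genes with the core did not move together in lung: the differences were -0.63 for Gsta3, 0.13 for Gstm5, -0.05 for Gstm7 and -0.22 for Mgst1, and only the first passed the test. A match is a string of letters and was not tested as a binding site.

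All 3 alpha-class genes had lower means in tumor lungs, and none overlapped between groups. Gsta4 was 11.34, 11.10 and 11.21 in tumor lungs, against 11.59, 11.72 and 11.70 in control lungs. Its difference of -0.46 ± 0.10 (SE) did not pass (limma adjusted p = 0.131). Gsta2, an inducible alpha-class enzyme, was 9.72, 9.79 and 9.65 in tumor lungs, against 10.50, 9.95 and 10.60 in control lungs (-0.63 ± 0.18 SE, limma adjusted p = 0.225). A probe set listed with Gsta1, Gsta2 and Gm3776 together, 6.29, 7.22 and 5.88 in tumor lungs and 8.02, 7.60 and 7.90 in control lungs, likewise kept the groups apart (-1.38 ± 0.35 SE, limma adjusted p = 0.214). Without tumor lung 1 and control lung 3 the differences were -0.50 for Gsta4 and -0.51 for Gsta2.

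Among the other lung members, Gstm1, Mgst3 and Sult1a1 also separated the groups, all toward lower values with a tumor. That makes 6 members with every tumor lung below every control lung and 0 with every tumor lung above, against 9.57% and 8.99% of all genes tested. Gstm1 was 12.94, 12.74 and 12.82 in tumor lungs and 13.18, 13.11 and 13.21 in control lungs (-0.34 ± 0.09 SE, limma adjusted p = 0.202). Mgst3 was 10.22, 10.05 and 10.27 in tumor lungs and 10.36, 10.47 and 10.49 in control lungs (-0.26 ± 0.10 SE, limma adjusted p = 0.34). Sult1a1 was 10.67, 11.48 and 11.40 in tumor lungs and 11.49, 11.64 and 11.79 in control lungs (-0.46 ± 0.23 SE, limma adjusted p = 0.484). Its difference rested on tumor lung 1: it was -0.20 without that array and -0.13 without tumor lung 1 and control lung 3. Without the same 2 arrays Gstm1 differed by -0.37 and Mgst3 by -0.26.

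The remaining lung members did not separate the groups. Sult1d1, a sulfotransferase that acts on catecholamines in the mouse, was 7.30, 6.53 and 2.62 in tumor lungs and 7.26, 6.98 and 9.01 in control lungs. Its difference of -2.27 ± 1.30 (SE) was -0.84 without tumor lung 3, which was under the filter value, and -2.54 without tumor lung 1 and control lung 3. The second Sult1d1 probe set was not measurable in lung. It read 4.10, 3.18 and 2.66 in tumor lungs 1, 2 and 3, and 3.72, 3.16 and 5.44 in control lungs. Gstp3, a second pi-class gene, was 5.53, 5.05 and 4.81 in tumor lungs and 4.59, 4.57 and 4.97 in control lungs (0.42, limma adjusted p = 0.491), and its difference was 0.22 without tumor lung 1 and 0.35 without tumor lung 1 and control lung 3. Gstk1, the mitochondrial and peroxisomal kappa-class enzyme, averaged 10.88 in tumor lungs and 11.12 in control lungs, and Gstp1 13.61 in each. The Ugt1a probe sets moved by -0.04 to 0.00 between tumor and control lungs.

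As a group, 15 of the 22 lung members had a lower mean with a tumor and 7 a higher one, where 52.9% of all genes had a lower mean (14 of 22 after median centring). The median difference was -0.11 over these 22 members, -0.04 over all 40 and -0.01 over all genes tested. By family it was -0.08 for 16 cytosolic GSTs, -0.22 for 3 MGSTs and -0.46 for 3 SULTs, and no UGT was tested. Without tumor lung 1 and control lung 3, 18 of the 22 had a lower mean (54.9% of all genes), and the medians were -0.07 for the GSTs, -0.26 for the MGSTs and -0.13 for the SULTs. At an unadjusted p under 0.05, 5 of the 22 were lower and 0 higher, against 6.46% of all genes lower and 13.2% in either direction.

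Markers of other cell types were measured in the same lungs. Those of neutrophils averaged 9.97, 10.28 and 9.58 in tumor lungs and 5.16, 6.16 and 5.56 in control lungs. Of 9 tested, 9 were higher and 5 were called, against 0.62% of all genes called higher. Camp, Ltf, Mmp8, Cd177 and Cxcr2 passed the filter only through the tumor lungs and so had to be higher there. All of these but Cxcr2 were called, and so was Ngp, which exceeded 4 on every lung. Ciliated cell markers averaged 9.76, 9.63 and 9.29 in tumor lungs and up to 10.76 in control lungs, each of which was higher. Of 4 tested, 4 had a lower mean with a tumor, against 52.9% of all genes, and none was called. The ciliated factor Foxj1 was 3.11, 3.39 and 3.07 in tumor lungs against 4.17, 6.42 and 5.89 in control lungs. Foxj1 passed the filter only through the control lungs and so had to be lower with a tumor. It is part of the 4 and of these averages. Club cell markers averaged 12.94, 12.60 and 12.51 in tumor lungs and 12.84, 12.74 and 12.96 in control lungs, with 7 of 10 lower and none called. Tumor lung 1 and control lung 3 had the highest of these averages. Without them, both tumor lungs left were below both control lungs left. Hp, Aldh1a1 and Cyp2f2, which are on this list, were bright in control livers too (15.56, 14.85 and 14.03). The main club cell secretory gene, Scgb1a1, was 16.19, 16.15 and 16.16 in tumor lungs and 16.18, 16.15 and 16.06 in control lungs. Cldn10 was 8.57, 8.55 and 7.78 in tumor lungs and 9.04, 8.91 and 8.98 in control lungs (limma adjusted p = 0.286), and Aldh1a1 was 14.87, 14.97 and 14.97 against 15.18, 15.13 and 15.21 (0.298), both without overlap. In whole tissue, fewer cells of a type and less RNA per cell cannot be told apart, and the part of these markers in the Gsta3 result was not tested.

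**Figure D3:**
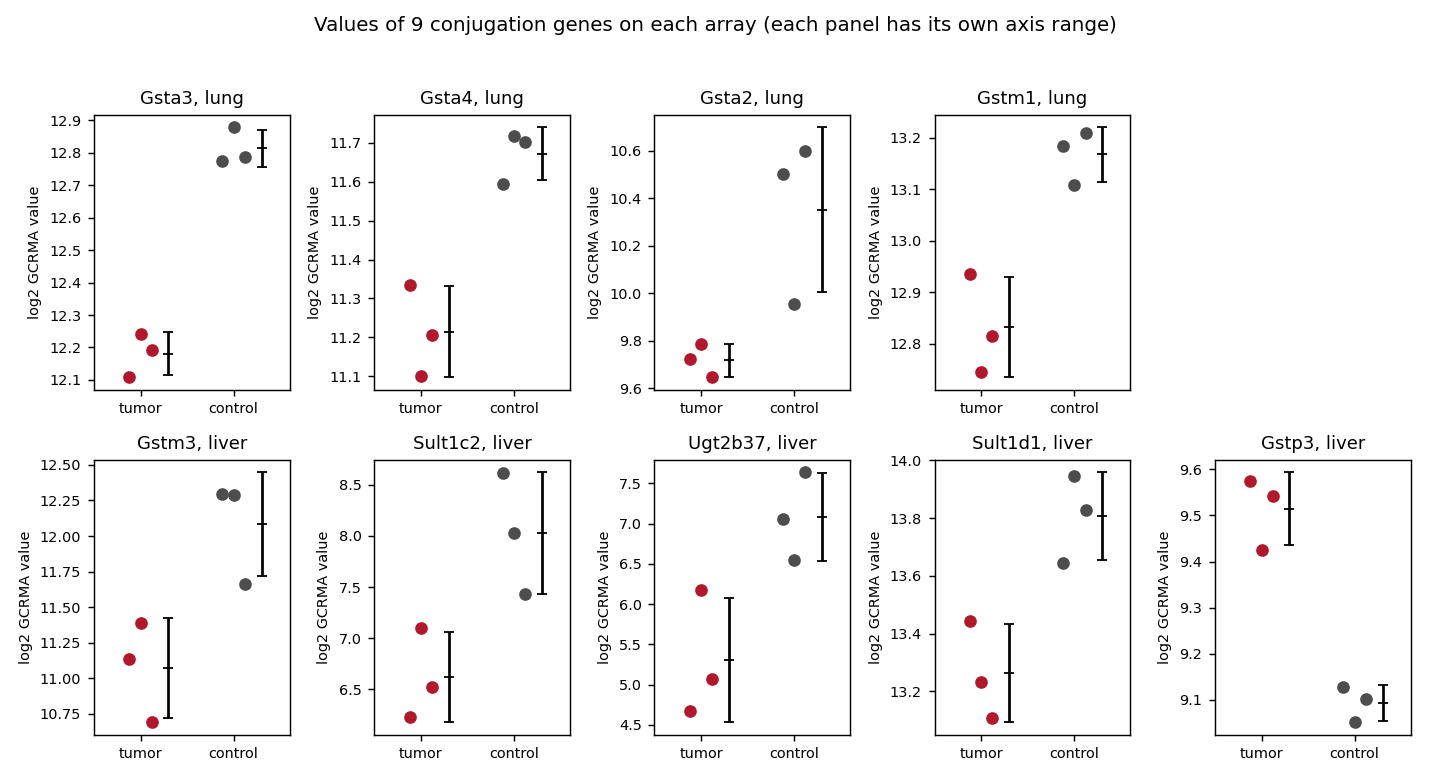
Points are the log2 GCRMA values of 9 genes on single arrays, tumor in red and control in grey, with bars for the mean ± SD (n = 3). The upper panels are lung and the lower panels liver, and each has its own axis range that does not start at 0. All 9 genes shown are among the members whose groups do not overlap, so the lack of overlap follows from which genes are shown. Over all genes tested, 9.57% were lower and 8.99% higher without overlap in lung, and 22.7% and 10.4% in liver. Only Gsta3 in lung passed the test over all genes.

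In livers of tumor-bearing mice, none of 34 members tested passed, against 1.87% of all genes (1.23% lower, 0.635% higher), although most had a lower mean. At an unadjusted p under 0.05 there were 11 members, 10 lower and 1 higher, against 25.9% of all genes, 17.7% lower and 8.17% higher. Means were lower for 28 of 34 members (82.4%) and for 60.1% of all genes. The median difference was -0.22 over members and -0.07 over all genes tested. By family it was -0.19 for 17 cytosolic GSTs (14 lower), -0.23 for 2 MGSTs (-0.02 for Mgst1 and -0.45 for Mgst3), -0.26 for 8 SULTs (6 lower) and -0.27 for 7 UGTs (6 lower). In 11 members every tumor liver was below every control liver, and in 2 every tumor liver was above, against 22.7% and 10.4% of all genes.

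**Figure D4:**
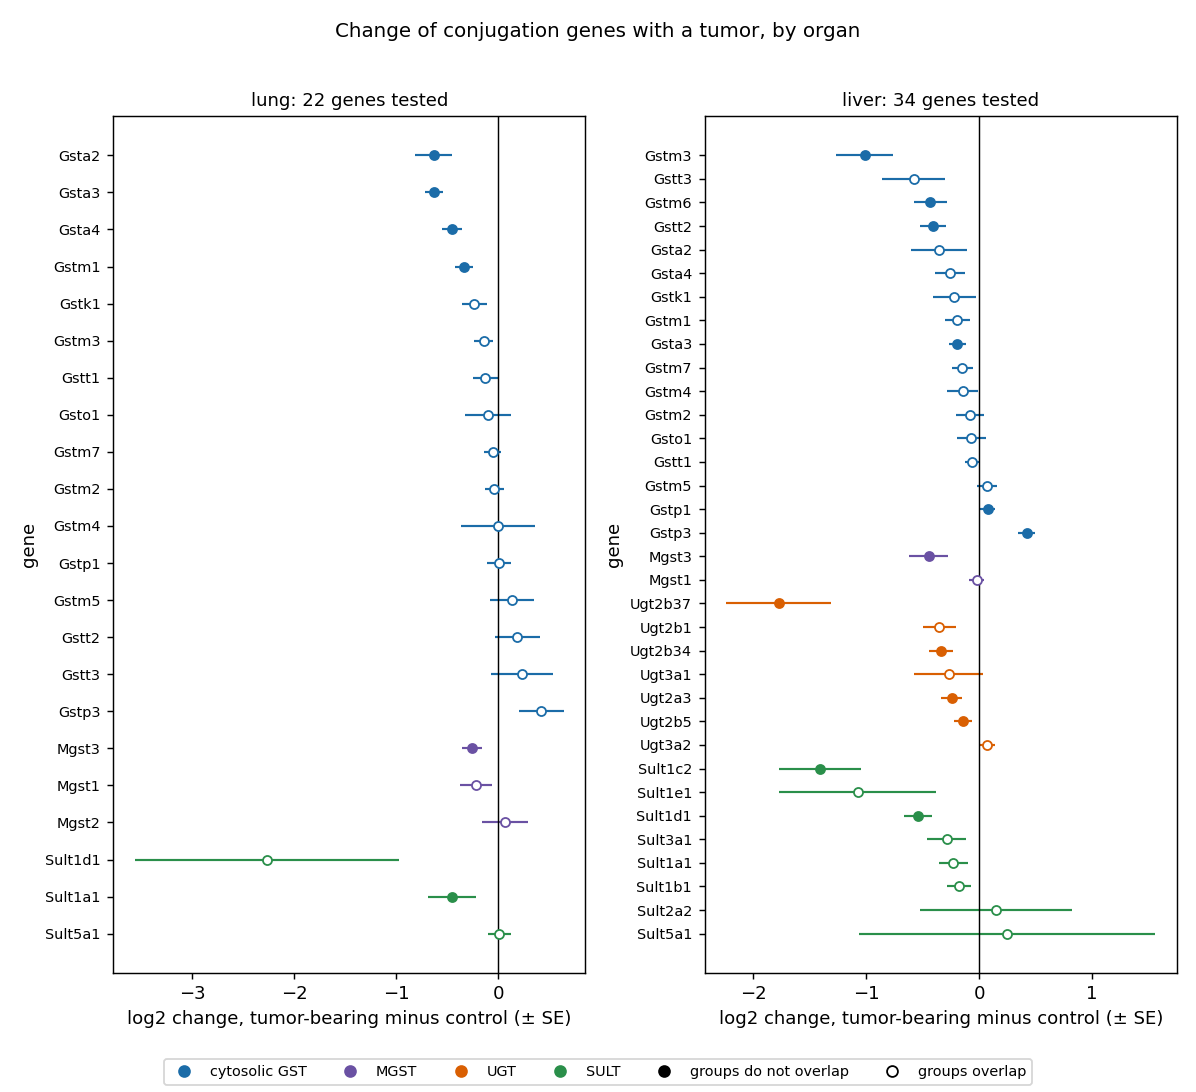
Points are log2 differences, tumor-bearing minus control, with their SE, for the 22 genes tested in lung (left) and the 34 tested in liver (right), coloured by family. Filled points mark genes whose groups did not overlap. Filled points in lung all lie left of 0, and in liver 11 lie left of 0 and 2, Gstp1 and Gstp3, lie right of it.

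Gstp3 had the smallest p of the liver members and was the only one higher at the unadjusted level. It was 9.57, 9.42 and 9.54 in tumor livers, against 9.13, 9.05 and 9.10 in control livers. The groups were well apart, with a difference of 0.42 ± 0.07 (SE), 1.34-fold, that missed the threshold (limma adjusted p = 0.0545, and 0.0441 to 0.156 over the alternatives). Gstp1, of the same class, averaged 14.54 ± 0.03 in tumor livers and 14.46 ± 0.04 in control livers (SD, n = 3 each; limma adjusted p = 0.485), also without overlap.

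Gstm3 had the largest difference in means among the liver GSTs. It was 11.13, 11.39 and 10.69 in tumor livers, against 12.30, 12.29 and 11.66 in control livers. The difference was -1.01 ± 0.25 (SE), 2.02-fold (limma adjusted p = 0.0903). Its second, dimmer probe set read 4.47, 2.24 and 3.04 in tumor livers and 7.29, 6.73 and 5.18 in control livers. With 2 of the 3 tumor livers under the filter value, no size is given for it. With the spread estimated from all 12 arrays, the limma adjusted p of Gstm3 was 0.0144. That spread takes in the lungs, where Gstm3 was faint. Its SD was 0.07 in tumor lungs and 0.11 in control lungs, against 0.36 in tumor livers and 0.36 in control livers. This p therefore does not rest on the spread in liver alone. Gstt2 and Gstm6 also separated the groups toward lower values. The difference was -0.41 ± 0.12 (SE, limma adjusted p = 0.108) for Gstt2, a theta-class enzyme, and -0.43 ± 0.15 (SE, limma adjusted p = 0.148) for Gstm6.

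The promoters of Gstp3 and Gstm3 are given because these were the liver GSTs with the smallest p in each direction. Beside them stands the xenobiotic response element, which the aryl hydrocarbon receptor binds. Its core GCGTG, on either strand, was found in 10 of the 35 members with a window and in 28.2% of all windows. Gstp3 (GRCm38.p6, chr19:4059448-4059697, minus strand) has the core, in capitals, 235 to 231 bases before the start, and Gstm3 (chr3:107969175-107969424, minus strand) has neither core in its 250 bases.
Gstp3: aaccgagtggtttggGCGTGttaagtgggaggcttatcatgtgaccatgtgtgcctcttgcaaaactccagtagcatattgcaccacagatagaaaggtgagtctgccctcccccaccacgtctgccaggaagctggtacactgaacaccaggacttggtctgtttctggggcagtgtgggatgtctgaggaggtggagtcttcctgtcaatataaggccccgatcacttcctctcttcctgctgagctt
Gstm3: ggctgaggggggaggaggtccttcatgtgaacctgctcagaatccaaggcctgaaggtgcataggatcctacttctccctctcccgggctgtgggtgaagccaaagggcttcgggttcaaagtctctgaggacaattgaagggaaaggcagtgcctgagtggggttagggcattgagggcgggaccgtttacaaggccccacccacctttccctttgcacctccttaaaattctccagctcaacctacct
Both are written 5′ to 3′ on the gene's own strand, ending at the base before the start.

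Gsta3 in liver depended on the probe set. Its brighter set was 14.79 in all 3 tumor livers, against 15.05, 15.02 and 14.87 in control livers (-0.19 ± 0.08 SE, limma adjusted p = 0.185). The dimmer set was 11.66, 11.67 and 11.53 in tumor livers, against 12.64, 12.27 and 12.29 in control livers. That is a difference of -0.78 ± 0.12 (SE), 1.72-fold, just short of the threshold over all probe sets (limma adjusted p = 0.0519). Neither set overlapped between groups in either organ.

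Liver MGSTs did not pass. Mgst1 averaged 15.44 in tumor livers and 15.46 in control livers. Mgst3 was 9.09, 9.13 and 8.77 in tumor livers and 9.58, 9.61 and 9.13 in control livers, with the nearest arrays almost equal (-0.45 ± 0.17 SE, limma adjusted p = 0.178), while its second probe set read 2.11 to 2.58 on the liver arrays.

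Among the SULTs, the 5 tested Sult1 genes all had lower means in tumor livers. Sult1d1 was 13.44, 13.23 and 13.11 in tumor livers, against 13.64, 13.94 and 13.83 in control livers (-0.54 ± 0.13 SE, 1.46-fold, limma adjusted p = 0.0791). A second Sult1d1 probe set gave 11.87, 11.76 and 11.66 in tumor livers and 12.33, 12.34 and 12.22 in control livers (-0.53 ± 0.08 SE, limma adjusted p = 0.0522). The probe sets thus gave nearly the same difference, each without overlap and each short of the threshold.

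Sult1c2 was low and spread more widely. It was 6.23, 7.10 and 6.52 in tumor livers, against 8.62, 8.03 and 7.43 in control livers (-1.41 ± 0.36 SE, 2.65-fold, limma adjusted p = 0.0951). Sult1e1, the estrogen sulfotransferase, overlapped, at 9.69, 8.04 and 10.26 in tumor livers and 10.67, 11.08 and 9.46 in control livers. The female-predominant Sult2a2 and Sult3a1 also overlapped or missed the test: Sult2a2 was 13.70, 13.62 and 13.47 in tumor livers and 13.41, 14.85 and 12.10 in control livers, and Sult3a1 differed by -0.29 (limma adjusted p = 0.347). For Sult2a2 the spread lay within the control livers.

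None of the UGTs of liver passed, and 6 of the 7 tested had a lower mean with a tumor. Ugt2b37, of the family that glucuronidates steroids, was 4.67, 6.17 and 5.08 in tumor livers, against 7.06, 6.55 and 7.64 in control livers (-1.77 ± 0.46 SE, 3.42-fold, limma adjusted p = 0.0971). Its relatives differed less: Ugt2b34 by -0.34 ± 0.10 (SE, limma adjusted p = 0.124), Ugt2a3 by -0.24 and Ugt2b5 by -0.14, each without overlap. Ugt2b1 differed by -0.35 ± 0.15 (SE, limma adjusted p = 0.201), and its groups overlapped. The other Ugt2b34 probe set differed by -0.09, and its groups overlapped. Ugt3a2, of a family that in humans uses sugars other than glucuronic acid, was 13.80 in tumor livers and 13.72 in control livers. The 3 Ugt1a probe sets differed by 0.02 to 0.10 (limma adjusted p = 0.479 to 0.866).

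A single member probe set had an adjusted p under 0.05 in liver (limma over probe sets, where 1.53% were called and 0.593% called higher). It is listed with Ugt2a2 and Ugt2a1 together, so no single gene is named for it. Ugt2a1 is known from the olfactory epithelium of rodents. The set was 4.44, 4.22 and 4.70 in tumor livers, against 3.12 in all 3 control livers, and 3.12 on all 6 lung arrays. With the control livers counted at the filter value of 4, it was at least 1.37-fold higher in tumor livers. It passed the filter only through the 3 tumor livers and so had to be higher there, and its values are given as a description.

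In these livers the hepatocyte markers had a median difference of 0.04 and none was called. Of the 15, 13 had a higher mean with a tumor and 2 a lower one (13.3%), where 60.1% of all genes had a lower mean. At limma's unadjusted p under 0.05, 2 were higher and 1 lower, against 8.17% and 17.7% of all genes. Their average lay at 15.45 to 15.55 in the livers, and the highest value on any array was 16.72. Neutrophil markers averaged 4.76, 4.50 and 4.51 in tumor livers and 3.16, 4.14 and 3.60 in control livers, and their part in the liver differences was not tested.

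The difference between organs was tested for 35 members as the lung change minus the liver change, and none passed, against 1.55% of all genes. At an unadjusted p under 0.05 there were 6, 5 with a higher and 1 with a lower value in lung minus liver, against 17.2% of all genes, 10.9% higher and 6.26% lower. Of the 35 members, 21 were measurable in both organs and 13 in liver only. For Gstm6, Sult1c2 and Ugt2b37, among the 5 higher, lung was under the filter value and the difference is the liver change with its sign turned. The 3 of the 6 measurable in both organs by the filter were Gsta3, Gstm3 and Gstt2. Gstm3 lay just above the filter value in lung, with the same 4.61 on tumor lung 2 and on control lungs 1 and 2. Its lung minus liver difference of 0.87 came mostly from the liver change of -1.01, with a lung change of -0.15. For Gsta3 the lung minus liver difference was -0.44 ± 0.11 (SE, limma adjusted p = 0.0875) by the brighter probe set. By the dimmer set it was 0.23 ± 0.22 (SE, limma adjusted p = 0.623), so the sets differed in direction. The fall of Gsta3 in lung is therefore not shown to differ from its change in liver.

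The genes that supply the conjugating groups did not pass in either organ. Of 10 tested in lung, 9 had a lower mean with a tumor and 1 was lower at limma's unadjusted p under 0.05, against 52.9% and 6.46% of all genes (median -0.17, against -0.01). Of 11 tested in liver, 7 had a higher mean and 2 were higher at the unadjusted level, against 8.17% of all genes at that level (median 0.07, against -0.07). By mean, 4 of the 11 were lower, against 60.1% of all genes. Among the 7 was Gclm, a subunit of the enzyme that limits glutathione synthesis, at 12.43, 12.21 and 12.27 in tumor livers and 11.98, 11.87 and 12.05 in control livers (limma adjusted p = 0.104). Of other conjugation and hydrolysis enzymes, none of 10 passed in lung (1 lower at the unadjusted level, against 6.46% of all genes) and 1 of 15 fell in liver, against 1.23%. In liver 6 were lower and 2 higher at the unadjusted level, against 17.7% and 8.17% of all genes. The 2 higher were Tpmt and Nat2, which methylate thiopurines and acetylate arylamines, by 0.65 and 0.69 (limma adjusted p = 0.0529 and 0.0706). The gene that fell was As3mt, which methylates arsenic, at 9.83, 9.82 and 9.84 in tumor livers and 10.49, 10.40 and 10.36 in control livers (-0.59 ± 0.07 SE, limma adjusted p = 0.0338).

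Of 18 regulators tested in liver, 2 fell, against 1.23% of all genes, and of 12 tested in lung none passed. At limma's unadjusted p under 0.05, 4 were lower and 2 higher in liver, against 17.7% and 8.17% of all genes. In lung 2 were lower, against 6.46%. Ahr, the aryl hydrocarbon receptor, was 10.04, 10.14 and 9.97 in tumor livers and 10.88, 10.98 and 10.92 in control livers (-0.88 ± 0.08 SE, limma adjusted p = 0.0323). In lung it was 11.60, 11.10 and 11.13 with a tumor and 11.17, 10.78 and 10.85 without, and the organs differed (1.22 ± 0.21 SE, limma adjusted p = 0.0224). Nr0b2, the bile-acid-induced repressor SHP, was 9.88, 8.89 and 8.70 in tumor livers and 11.27, 11.18 and 11.64 in control livers (-2.21 ± 0.34 SE, limma adjusted p = 0.0478).

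Nfe2l2, which encodes NRF2, passed in neither organ alone but its changes differed between them. It was 12.66, 12.69 and 12.60 in tumor lungs and 12.90, 12.94 and 12.87 in control lungs (limma adjusted p = 0.253), and 11.39, 11.21 and 11.42 in tumor livers and 11.07, 10.97 and 10.83 in control livers (limma adjusted p = 0.0962). The groups did not overlap in either organ, with lower values with a tumor in lung and higher ones in liver. The lung minus liver difference was -0.64 ± 0.13 (SE, limma adjusted p = 0.0407).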

How the data were processed

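The authors deposited 1 log2 value for each probe set and array, made with GCRMA (background by probe sequence, quantile normalization), per the submitters' processing notes, which also name limma. Their versions and settings are not stated in these sources. No scanner file, batch or depth was used, and the number of arrays (3 per group) limits the precision.

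Of 22626 probe sets, 20380 are listed with 1 gene, 691 with several and 1555 with none. A gene's brightest probe set, by mean over the 12 arrays, stood for it. Tests took genes with values above 4 on 3 or more arrays of the comparison. They were run within each organ, between control organs, and for the difference of tumor changes between organs, with limma 3.58.1 (R 4.3.3, lmFit and eBayes) and Benjamini-Hochberg adjustment over all genes at 0.05. All probe sets were also fitted. "At least" folds count a group at 4 where all its arrays were at or under 4. The scripts were tested on simulated data. Promoter windows are RefSeq's (GRCm38.p6), present for 35 of 40 members.

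The members, lists, markers and tests were chosen with earlier results of these data known. Genes were named by rule: members called, the 2 smallest p per subfamily and organ, groups without overlap at 1.5-fold or more, and the widest organ differences. Other members, and probe sets listed with several genes, were named after their values were seen. The design has separate mice within each group, but the labels do not say that a number marks the same mouse in lung and liver. Same-numbered lung and liver arrays correlated at -0.0111 to 0.106 in their deviations from group means, and tumor and control arrays at -0.278 to 0.33, so numbers were not used as pairs. Alternatives covered the filter, probe set choice, scaling, eBayes options, array weights, fits over all 12 arrays, a replicate block and leaving out arrays.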

Additional observations from a re-analysis of the deposited data

How the results depend on the processing

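In lung, the count of members called (reported value 1, Gsta3) went down to 0 without a filter and with the mean of all probe sets of a gene. It was also 0 after median centring and with replicate numbers as a block. Without both lung arrays with the highest hepatocyte markers it was 0, and it was 0 to 0 when single lungs were left out. In liver, the count (reported value 0) was 1 with a filter above 5 (Gstp3), 2 with trend and robust eBayes (Gstp3 and Sult1d1), 3 with all 12 arrays in 1 fit (Gstm3, Sult1c2 and Ugt2b37) and 5 at an adjusted p under 0.10. The fit over all 12 arrays takes its spread from the lungs too, where these 3 genes were faint and varied less than in liver. For the difference between organs (reported value 0) it was 1 without a filter and 1 with trend and robust eBayes (Gsta3 in both), 1 at an adjusted p under 0.10, and 0 to 1 with single arrays left out; the 1 was Ugt2b37 without tumor liver 2 (2.20, limma adjusted p = 0.0238). Between control organs 33 members were called, and 23 to 33 under the alternatives. Member probe sets called in lung (reported value 0) were 1 with trend and robust eBayes, 1 with array weights and 1 with all 12 arrays. Those called in liver (reported value 1, the Ugt2a2 and Ugt2a1 set) were 0 without a filter, 2 with a filter above 5, 2 after quantile normalization, 2 after median centring, 5 with trend and robust eBayes, 3 with array weights, 6 with all 12 arrays, 0 with the replicate block and 0 to 0 with single livers left out.

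Of 693 values of single members under alternatives, 657 kept direction and side of the threshold, 17 lost the call, 15 gained it and 4 reversed. The reversals were of Sult5a1 in lung (0.0095; -0.025 with array weights and -0.086 to 0.083 with single lungs left out, negative without tumor lung 3), Mgst1 in liver (-0.019; -0.043 to 0.014, positive without tumor liver 2) and Sult2a2 in liver (0.15; -0.53 to 0.85, negative without control liver 3). The causes were not tested, apart from the fewer arrays in fits that leave some out. Without the filter the liver MGST median was -0.02 and the lung SULT median 0, as genes at the bottom of the scale enter. Values at the bottom of the scale have no order, and the replicate block rests on numbers that are not known to mark a mouse.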
